A study of Agaricus bisporus with 16 samples.

Results

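The genes described are 6 components of the mitochondrial respiratory chain of the button mushroom *Agaricus bisporus*: the cytochrome c gene CytC2 (gene '135048' of the files), the complex III subunit genes RIP1 ('61124'), QCR6 ('121857') and QCR9 ('135173'), and the complex IV subunit genes COX6A ('133378') and COX6B ('134662'). They were chosen by identifier out of 10438 genes listed, with earlier results of these data known. All 6 were among the 8818 genes tested. The study grew 4 strains on a commercial-type compost made from straw of wheat with manure of horses and chickens, under a casing layer, and compared their mycelium at the pinning stage and at the first flush of mushrooms. The strains were A15, the commercially cultivated one, and 219 30P, 245 AMA-7 and 065 BP-8. Mycelium-colonised compost was sampled from the crates 27 and 39 days after spawning and frozen, giving 8 groups (a strain on a day) of 2 libraries each, made from duplicate compost samples. Whether duplicates were drawn from different crates is not stated, and the p-values therefore describe the spread among these libraries, part of which may be technical.

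The respiratory chain in the inner mitochondrial membrane passes electrons from food molecules to oxygen. Complex III, the cytochrome bc1 complex, takes electrons from reduced ubiquinone and hands them to cytochrome c, a small soluble haem protein. Cytochrome c carries them to complex IV, cytochrome c oxidase, which reduces oxygen to water, and both complexes move protons across the membrane that then drive ATP synthase. Fungi can also bypass complexes III and IV through an alternative oxidase. The core redox subunits of complex IV are encoded in the mitochondrial genome, and the genes described here are supporting nuclear subunits, apart from RIP1, the Rieske iron-sulfur protein, which takes part in electron transfer in complex III, and cytochrome c itself.

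Levels are FPKM, fragments scaled to transcript length and to the mapped fragments of the library, as deposited by the authors; the unit was inferred from the values. If that unit holds, they are per length and levels may be set side by side between genes, and comparisons between genes rest on it. Levels are also relative to the other RNA of a library. Differences are on the log2(FPKM + 1) scale and were tested with limma, with p-values adjusted by the Benjamini-Hochberg method over all 8818 genes and a threshold of 0.05. The relative depth of the libraries is an indirect estimate from ratios of low deposited values (0.15 to 0.8 FPKM), made without read counts. It spanned a 1.12-fold range. In these bulk samples fewer cells of a kind and less RNA per cell cannot be told apart. The A15 files list 9520 genes and those of the other strains 10438, so that strain and the making of the table cannot be told apart wherever A15 is compared with another strain. The median of all tested genes moved by 0.11 (log2) from day 27 to day 39 in the mean of the strains, by 0.24 in A15, -0.071 in 219 30P, 0.16 in 245 AMA-7 and 0.070 in 065 BP-8. Values under another scaling of the libraries are given beside calls that it alters. Of tested genes above 0 in both duplicates, 16.9% lay over 1.5-fold apart in 065 BP-8 on day 27. In the other groups this share was 5.64% to 9.79%. The fit shares its estimate of the spread over all groups, so the SEs do not show this difference.

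From pinning to the first flush, CytC2 fell 3.94-fold, RIP1 2.25-fold and COX6A 1.53-fold in the mean of the 4 strains, and COX6B fell 1.17-fold. QCR9 fell by 0.15 (log2, limma adjusted p = 0.0313), a call lost without each of 9 of the 16 libraries, and QCR6 did not pass the test. In all, 5 of the 6 genes fell and none rose, where 32.5% of all tested genes fell and 44.9% rose. The median change of the 6 genes was -0.42 (log2), against 0.11 for all tested genes. CytC2, RIP1 and COX6A lay lower in every day 39 library than in any day 27 library, whatever the strain, whereas the days overlapped for QCR6, QCR9 and COX6B. Among the other subunits of complexes III and IV described below, QCR1, QCR2 and COX4 separated in the same way. QCR8, COX5A and COX5B overlapped. The share of all tested genes whose days separate like this, over all strains or within a strain, was not counted.

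**Figure D1:**
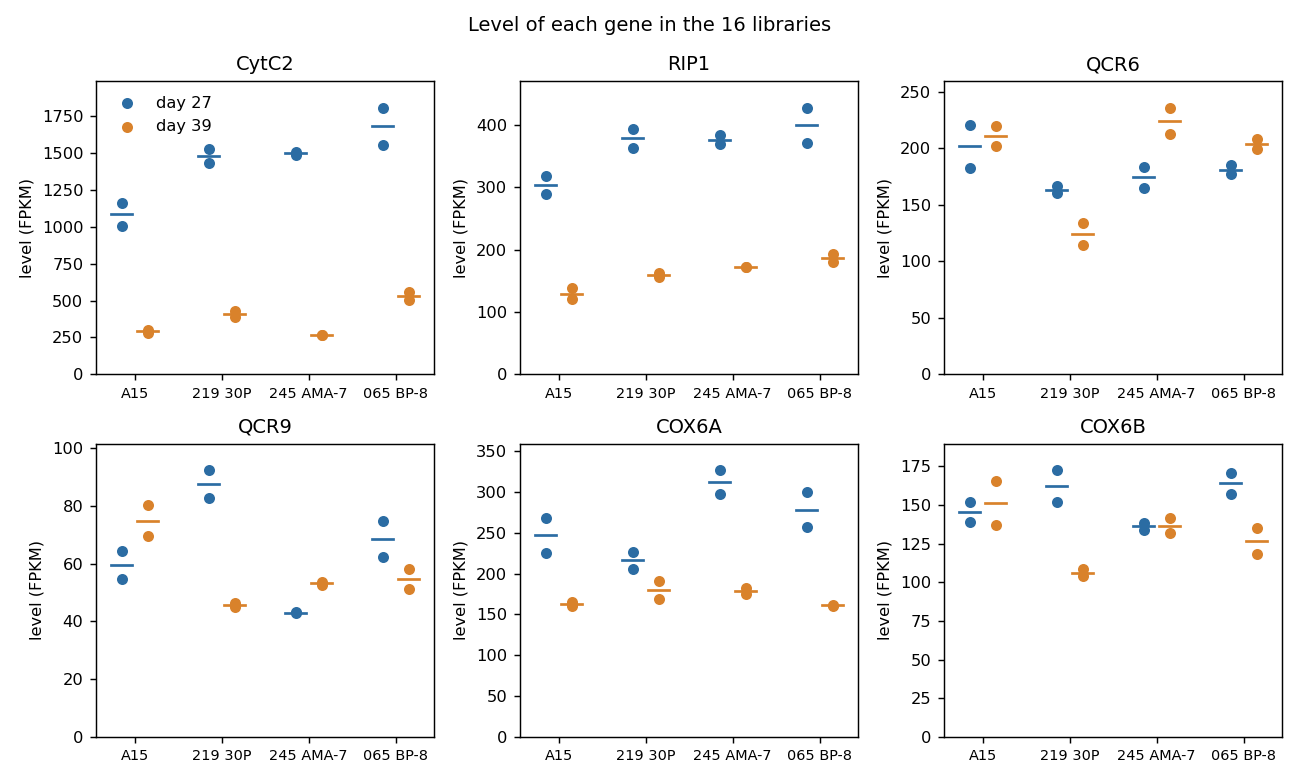
FPKM of the 6 genes (vertical axes, from 0) in the 16 libraries by strain, with blue points for day 27 and orange points for day 39; each point is 1 library and a dash marks the mean of 2. For CytC2, RIP1 and COX6A every orange point lies below every blue point, while for QCR6 and QCR9 the order of the days changes from strain to strain.

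CytC2, the electron carrier between complexes III and IV, had the highest FPKM of the 6 genes in all 16 libraries. In A15 its 2 libraries stood at 1008 and 1161 FPKM on day 27 and at 280.0 and 301 FPKM on day 39. The 219 30P libraries stood at 1431 and 1529 FPKM, then at 427 and 385 FPKM. Every day 39 library of both strains was thus far below its day 27 libraries. In 245 AMA-7 the level went from 1492 and 1512 FPKM to 266 and 265 FPKM. The 065 BP-8 libraries held 1810 and 1557 FPKM on day 27 and 558 and 502 FPKM on day 39, the highest on each day. In the mean of the strains CytC2 fell by 1.98 ± 0.053 (log2, SE; 16 libraries, limma adjusted p = 1.66e-11), and 0.987% of the tested genes had a lower change. Between 0.431% and 0.998% of the tested genes were more abundant than CytC2 in the group means on day 27, and between 2.71% and 5.17% on day 39.

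The fall of CytC2 was not the same in every strain. It was 5.63-fold in 245 AMA-7 (-2.49 ± 0.11 log2, SE, limma adjusted p = 6.32e-09), and 3.17-fold in 065 BP-8 (-1.66 ± 0.11, adjusted p = 1.08e-07). A15 and 219 30P lay between, at -1.89 and -1.86. The day effect differed among strains (limma F test of the interaction, adjusted p = 0.00232): that of 245 AMA-7 was lower by 0.60 than that of A15 (adjusted p = 0.0105), by 0.63 than that of 219 30P (0.00495) and by 0.83 than that of 065 BP-8 (0.00175).

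RIP1, which in complex III passes electrons from ubiquinol towards cytochrome c1, followed the same order of days at lower levels. The A15 libraries held 319 and 289 FPKM on day 27 and 121 and 138 FPKM on day 39. In 219 30P the values were 364 and 394 FPKM, then 155 and 163 FPKM. Day 39 was again below day 27 with no overlap in both strains. The 245 AMA-7 libraries went from 384 and 369 FPKM to 173 and 173 FPKM. Those of 065 BP-8 went from 428 and 372 FPKM to 193 and 180 FPKM. RIP1 fell by 1.17 ± 0.048 in the mean of the strains (log2, SE; limma adjusted p = 3.32e-10), and 4.50% of tested genes had a lower change. The falls were -1.23 in A15, -1.25 in 219 30P, -1.12 in 245 AMA-7 and -1.10 in 065 BP-8, each past the threshold, and the interaction did not pass (adjusted p = 0.642).

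QCR6, known in yeast as the acidic hinge protein of complex III that sits near cytochrome c1, showed no common direction. In A15 the libraries held 183 and 221 FPKM on day 27 and 202 and 219.9 FPKM on day 39, so the days overlapped. In 219 30P, 160.1 and 166 FPKM on day 27 were above 134 and 114 FPKM on day 39. The 2 other strains had the opposite order, with all day 39 libraries above the day 27 ones. In 245 AMA-7 the values were 184 and 165 FPKM, then 212 and 236 FPKM. In 065 BP-8 they were 185 and 177 FPKM, then 199.7 and 208 FPKM. The mean change over strains was 0.051 ± 0.055 (log2, SE; 95% interval -0.069 to 0.17, limma adjusted p = 0.408), and its sign changed with the scaling, at -0.052 under median-ratio scaling and 0.12 (0.0416) under quantile normalization. QCR6 fell in 219 30P (-0.40 ± 0.11, adjusted p = 0.00745; -0.28 with adjusted p = 0.084 without 219 30P day 39 replicate 2) and rose in 245 AMA-7 (0.36 ± 0.11, adjusted p = 0.0122). The rise was 0.29 without day 27 replicate 2 (adjusted p = 0.0981) or day 39 replicate 2 (0.0976), and 0.18 with median-ratio scaling (0.194). The changes did not pass in A15 (0.067, or -0.19 with median-ratio scaling; 95% interval -0.17 to 0.31, adjusted p = 0.618) or in 065 BP-8 (0.17, 95% interval -0.068 to 0.41, adjusted p = 0.193).

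QCR9, a small subunit of complex III in yeast, had the lowest FPKM of the 6 genes in all 16 libraries. In A15 it stood at 64.4 and 54.5 FPKM on day 27 and 69.6 and 80.2 FPKM on day 39. In 245 AMA-7 it stood at 43.0 and 43.1 FPKM, then at 52.6 and 53.8 FPKM. Day 39 was above day 27 in both of these strains and below it in the other 2. In 219 30P the values were 82.8 and 92.3 FPKM, then 45.0 and 46.3 FPKM. In 065 BP-8 they were 74.7 and 62.1 FPKM, then 51.1 and 58.0 FPKM. The fall in 219 30P was -0.92 ± 0.12 (log2, SE, limma adjusted p = 2.55e-05) and held under all 4 scalings, between -0.92 and -0.82. The other strains' changes were smaller. In 065 BP-8 QCR9 fell by 0.32 (adjusted p = 0.0328), a value of -0.19 without day 27 replicate 1 (adjusted p = 0.245) and of -0.23 without day 39 replicate 1 (0.204). In A15 it rose by 0.33 (adjusted p = 0.0281) as deposited, by 0.077 with median-ratio scaling (0.588) and by 0.19 after quantile normalization (0.178), so the call held under 2 of 4 scalings. In 245 AMA-7 the rise was 0.30 (adjusted p = 0.0419), a call that no other scaling kept, with 0.12 for median-ratio scaling (0.379), 0.16 for quantile normalization (0.246) and 0.26 for TPM scaling (0.0751). Both rises also missed the threshold when a library of the strain was left out, A15 at 0.21 (adjusted p = 0.214) without day 27 replicate 2 and 0.23 (0.187) without day 39 replicate 2, and 245 AMA-7 with adjusted p between 0.104 and 0.137 for each of its 4 libraries.

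COX6A, a nuclear-encoded subunit of complex IV named after the mammalian subunit VIa, was lower on day 39 in each strain. The A15 libraries held 268 and 226 FPKM on day 27 and 159.7 and 166 FPKM on day 39. In 219 30P the values were 206 and 226 FPKM, then 191 and 169 FPKM. The days did not overlap in either strain, with the narrower gap in 219 30P. In 245 AMA-7 they were 327 and 298 FPKM, then 175 and 183 FPKM. In 065 BP-8 they were 257 and 300.2 FPKM, then 161 and 162 FPKM. COX6A fell by 0.61 ± 0.054 in the mean of the strains (log2, SE, limma adjusted p = 3.47e-07). It fell by 0.59 in A15, 0.80 in 245 AMA-7 and 0.78 in 065 BP-8, and by 0.26 in 219 30P with an adjusted p of 0.0486 that rose to 0.217 with median-ratio scaling, 0.274 with quantile normalization and that missed the threshold in 11 of 16 fits without a single library (adjusted p from 0.0316 to 0.272 over the 16).

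COX6B, named after mammalian subunit VIb, which faces the intermembrane space near the cytochrome c binding side, differed between days in 2 of the strains. In 219 30P it went from 152 and 172 FPKM to 108 and 104 FPKM. In 065 BP-8 it went from 157 and 171 FPKM to 118 and 135 FPKM. In both strains the day 39 libraries were below the day 27 ones. In A15 the values were 152 and 139 FPKM, then 137 and 166 FPKM. In 245 AMA-7 they were 134 and 139 FPKM, then 132 and 141 FPKM. The days overlapped in these. COX6B fell in 219 30P (-0.60 ± 0.11 log2, SE, limma adjusted p = 4.07e-04). The fall in 065 BP-8 was smaller (-0.37 ± 0.11, limma adjusted p = 0.0106; 0.0605 without day 27 replicate 2 and 0.102 without day 39 replicate 1). Its changes in A15 (0.051, 95% interval -0.19 to 0.29, adjusted p = 0.702) and 245 AMA-7 (0.0053, -0.23 to 0.24, 0.971) turned negative with median-ratio scaling, at -0.20 and -0.17, without passing.

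Counted within strains, 3 of the 6 genes fell and 1 rose in A15, where 21.0% of tested genes fell and 41.3% rose. In 219 30P all 6 fell, against 34.8% of tested genes. In 245 AMA-7 3 fell and 2 rose, against 25.3% and 37.8%, and in 065 BP-8 5 fell, against 28.1%. The 3 genes that fell in all 4 strains, CytC2, RIP1 and COX6A, share this with 10.9% of tested genes, COX6A by the narrow margin in 219 30P given above. CytC2 and RIP1 fell at least 2-fold in each strain, as did 2.14% of tested genes. QCR6 and QCR9 were called in opposite directions in different strains, as were 15.7% of tested genes. With median-ratio scaling, 3, 5, 3 and 5 genes fell in A15, 219 30P, 245 AMA-7 and 065 BP-8, and none rose.

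**Figure D2:**
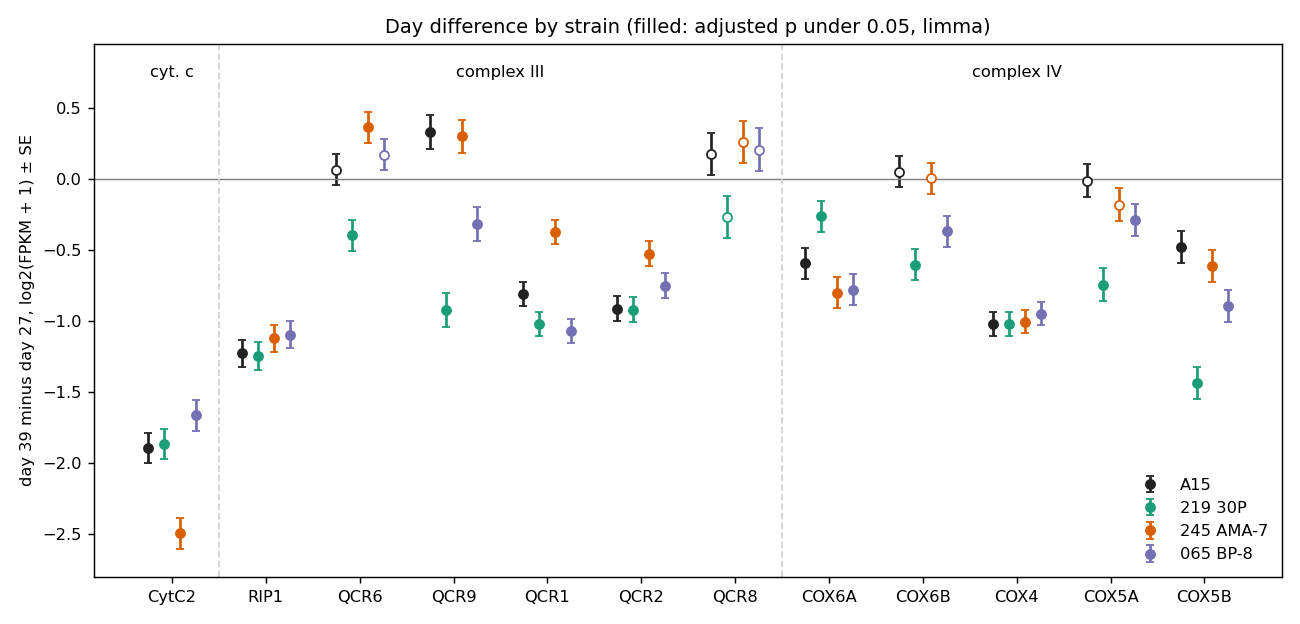
Change from day 27 to day 39 on the log2(FPKM + 1) scale of 12 genes (the 6 described and 6 more subunits of complexes III and IV) in each of the 4 strains, with bars for the SE of the limma fit and filled points for an adjusted p under 0.05. CytC2 lies between -2.49 and -1.66 and RIP1 between -1.25 and -1.10, while QCR6 and QCR9 lie on both sides of 0.

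**Figure D3:**
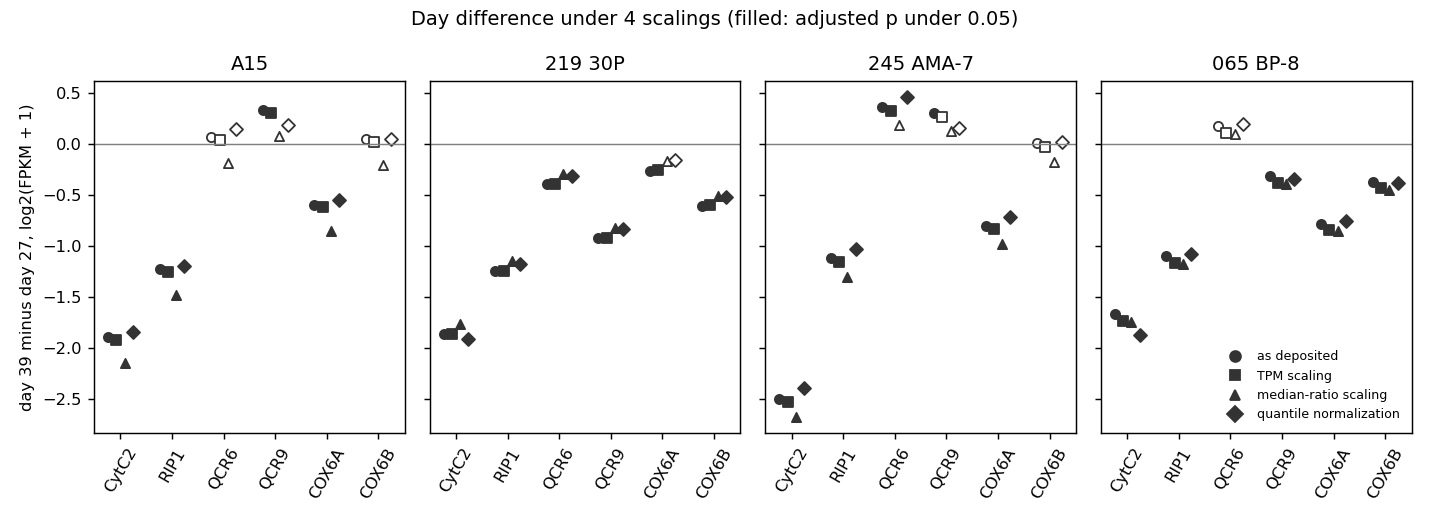
The same log2 day changes under 4 scalings of the libraries: as deposited (circles), TPM (squares), median-ratio (triangles) and quantile (diamonds); filled points passed at an adjusted p of 0.05. CytC2, RIP1 and COX6A stay below 0 in every strain, and the rises of QCR9 in A15 and 245 AMA-7 shrink to 0.077 and 0.12 with median-ratio scaling.

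The make-up of the set shifted between the days. CytC2 made up between 50.5% and 62.2% of the summed FPKM of the 6 genes in the 8 day 27 libraries (median 59.1%) and between 25.2% and 43.6% on day 39 (median 34.1%). The share of RIP1 had the same median, 14.9%, on both days. The median share of QCR6 was 6.69% on day 27 and 18.6% on day 39, that of COX6A 11.1% and 16.9%, that of COX6B 6.40% and 11.97%, and that of QCR9 2.59% and 4.92%. The sum itself was between 1995 and 2911 FPKM on day 27 and between 969 and 1281 FPKM on day 39. Since 1 gene made up most of the sum on day 27, a lower share of CytC2 raises the others' shares by construction.

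Ratios between genes within a library do not depend on a scaling that multiplies the whole library by 1 factor, as median-ratio and TPM scaling do; quantile normalization does not. The ratio of CytC2 to RIP1 had a median of 3.97 on day 27 (lowest 3.16, highest 4.23) and of 2.34 on day 39 (1.54 to 2.89), or 1.75-fold lower in the mean of the strains. CytC2 to QCR6 went from a median of 8.87 (5.26 to 9.80) to 1.83 (1.13 to 3.37). RIP1 to QCR6, 2 subunits of 1 complex, went from 2.17 (1.31 to 2.37) to 0.838 (0.602 to 1.43). The days did not overlap in any strain for these ratios. In CytC2 to RIP1 and CytC2 to QCR6 the days did not overlap across strains either. All 15 ratios were compared by an exact 2-sided permutation test of the days within strains (1296 arrangements), an analysis chosen after the values were seen. The 9 ratios with CytC2 or RIP1 over another gene each had an exact permutation p of 0.00154, the smallest the design allows (0.00257 after Benjamini-Hochberg adjustment over 15), and all 9 were lower on day 39 in 4 of 4 strains. RIP1 to COX6A was among them, with a median of 1.26 on day 27 and 0.955 on day 39. Each of the 9 holds CytC2 or RIP1, the genes of the set that fell most, so they are not separate results. How many pairs of other genes separate in this way or reach this p was not counted.

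Of the other ratios, QCR6 to COX6A was higher on day 39 (0.66 log2, exact permutation adjusted p = 0.0139), although 219 30P went the other way at -0.13. QCR6 to COX6B was higher by 0.28 (0.0168; 0.0502 without A15 day 27 replicate 1). COX6A to COX6B was lower by 0.38 (adjusted p = 0.0328; 0.0502 without A15 day 27 replicate 1, 0.0521 without A15 day 39 replicate 2 or 219 30P day 39 replicate 2), with 219 30P higher at 0.34. The 3 ratios that did not pass were QCR6 to QCR9 (0.21, exact permutation adjusted p = 0.134; 0.0231 without A15 day 27 replicate 2), QCR9 to COX6A (0.46, 0.0748) and QCR9 to COX6B (0.076, 0.383). Their means join opposite changes: QCR9 to COX6A changed by 0.93 in A15, -0.67 in 219 30P, 1.11 in 245 AMA-7 and 0.46 in 065 BP-8, with no overlap of the days in any strain. QCR9 to COX6B changed by 0.28, -0.33, 0.30 and 0.049 in the same order, with no overlap in the first 3. Over all strains the ratio of QCR9 to COX6B ranged from 0.311 to 0.546 on day 27 and from 0.380 to 0.508 on day 39.

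**Figure D4:**
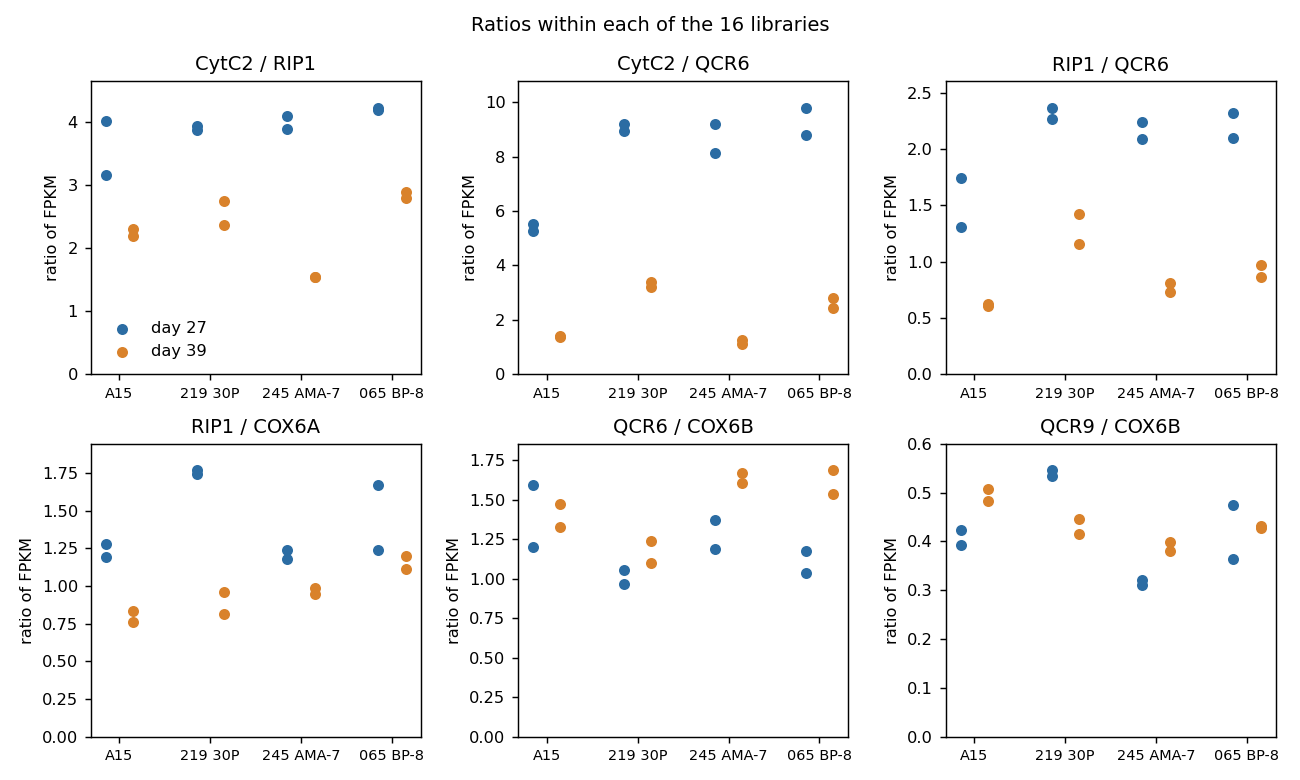
Ratios of FPKM between 6 pairs of the genes within each of the 16 libraries (vertical axes, from 0), by strain, with blue for day 27 and orange for day 39. The ratios of CytC2 to RIP1 and to QCR6 lie lower on day 39 in each strain, while QCR9 to COX6B lies higher on day 39 in A15 and 245 AMA-7 and lower in 219 30P.

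Between strains on day 27, 4 of the 6 genes passed the limma F test, against 72.8% of all tested genes, a share near the background. Between single strains, 41.6% of tested genes passed for 219 30P against A15, 39.6% for 245 AMA-7 against A15, 43.1% for 065 BP-8 against A15, 47.4% for 245 AMA-7 against 219 30P, 26.8% for 065 BP-8 against 219 30P and 47.7% for 065 BP-8 against 245 AMA-7. The median gene lay 0.15 (log2) above A15 in 219 30P, 0.063 in 245 AMA-7 and 0.11 in 065 BP-8 on day 27, and at -0.22, -0.049 and -0.12 on day 39. The order of CytC2 was 065 BP-8 (1684 ± 178 FPKM, SD, n = 2), 245 AMA-7 (1502 ± 14.5), 219 30P (1480.0 ± 68.8) and A15 (1085 ± 108). As deposited, the first 3 did not differ from their neighbours beyond their spread (adjusted p = 0.237 and 0.880), and A15 was lower than each, by 0.45 to 0.63 (log2, adjusted p between 6.15e-04 and 0.00531). Under 1 of the 4 scalings 065 BP-8 did pass against 245 AMA-7 (limma adjusted p = 0.0117), and likewise under 1 against 219 30P (0.0187). RIP1 had A15 last too, at 304 ± 21.0 FPKM, against 377 to 400.1 FPKM in the others. The differences from A15 were 0.32 for 219 30P, 0.31 for 245 AMA-7 and 0.39 for 065 BP-8 (adjusted p = 0.0194, 0.0227 and 0.00627), and with median-ratio scaling those of 219 30P and 245 AMA-7 were 0.17 and 0.25 (0.178 and 0.0601). All 3 also missed the threshold without A15 day 27 replicate 2, at 0.135, 0.15 and 0.0595. They also missed it without 219 30P replicate 2 (0.127), without 245 AMA-7 replicate 1 (0.11) or 2 (0.0633) and without 065 BP-8 replicate 1 (0.0534), each time for the strain concerned. The F test of RIP1 on that day (adjusted p = 0.0123) gave 0.0515 with median-ratio scaling and 0.131 without A15 day 27 replicate 2.

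QCR9 had the widest order on day 27: 219 30P (87.5 ± 6.69 FPKM, SD, n = 2), 065 BP-8 (68.4 ± 8.87), A15 (59.5 ± 7.01) and 245 AMA-7 (43.0 ± 0.106). It was 2.01-fold lower in 245 AMA-7 than in 219 30P (-1.01 log2, limma adjusted p = 3.26e-05). 219 30P exceeded A15 by 0.55 (adjusted p = 0.00279), and 245 AMA-7 was 0.45 below A15 (0.00926; 0.0819 without A15 day 27 replicate 1). The neighbours 219 30P and 065 BP-8 differed by 0.36 (0.0419), which missed the threshold under the other 3 scalings (0.0562 to 0.0819) and without each of 9 libraries. The neighbours 065 BP-8 and A15 did not differ beyond their spread (adjusted p = 0.197). COX6A was higher in 245 AMA-7 (312 ± 20.1 FPKM) than in 219 30P (216 ± 14.5) by 0.53 (adjusted p = 0.00166), with no pair of neighbours in its order passing as deposited. Its neighbours A15 and 219 30P passed under 1 of the 4 scalings (limma adjusted p = 0.0332). COX6A in 065 BP-8 also exceeded 219 30P, by 0.36 to 0.42, passing under all 4 scalings. Without a single library this difference was 0.25 to 0.47, and the call was lost in 2 of 16 fits. In 245 AMA-7 COX6A exceeded A15 by 0.28 to 0.43, passing under 3 of 4 scalings. That difference was 0.22 to 0.46 without a single library, and its call was also lost in 2 of 16 fits. QCR6 and COX6B did not pass the F test on day 27 (adjusted p = 0.121 and 0.112), and QCR6 did with median-ratio scaling (0.0311) or without A15 day 27 replicate 1 (0.0416).

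On day 39, 5 of the 6 genes passed the F test, against 82.1% of all tested genes. For the same 6 pairs of strains, in the same order, 59.7%, 53.7%, 46.2%, 55.7%, 45.5% and 37.9% of tested genes passed. CytC2 ranged from 065 BP-8 (530.1 ± 39.4 FPKM, SD, n = 2) over 219 30P (406 ± 29.6) and A15 (291 ± 15.1) to 245 AMA-7 (266 ± 0.346), so that 245 AMA-7, among the higher strains on day 27, was the lowest. 065 BP-8 exceeded 245 AMA-7 by 0.99 (log2, limma adjusted p = 3.00e-05) and A15 by 0.86 (5.15e-05). 065 BP-8 also exceeded its neighbour 219 30P, by 0.38 (0.0112; 0.0694 with median-ratio scaling, 0.0919 without 219 30P day 39 replicate 2, 0.0954 without 065 BP-8 day 39 replicate 1). 219 30P exceeded A15 by 0.48 (0.00207), and A15 and 245 AMA-7 did not differ beyond their spread (0.331). RIP1 was again lowest in A15, at 129 ± 11.6 FPKM, against 159 to 186 FPKM in the others. It lay above A15 by 0.30 in 219 30P (adjusted p = 0.0176; 0.14 without A15 day 39 replicate 1 and 0.0929 without 219 30P day 39 replicate 2), by 0.42 in 245 AMA-7 (0.00307) and by 0.52 in 065 BP-8 (8.79e-04).

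219 30P was the lowest strain for QCR6 and COX6B on day 39. QCR6 held 124 ± 14.0 FPKM there (SD, n = 2), against 204 to 224 FPKM in the other strains, which did not differ from one another beyond their spread. It was lower than A15 by 0.76, than 245 AMA-7 by 0.85 and than 065 BP-8 by 0.72 (log2, limma adjusted p = 8.96e-05, 4.93e-05 and 2.40e-04). COX6B held 106 ± 3.20 FPKM in 219 30P, lower than in A15 (151 ± 20.4) by 0.50 (adjusted p = 0.00179), while its neighbour 065 BP-8 (118 and 135 FPKM) did not differ from it beyond the spread (0.0762). For QCR9 A15 was highest, at 74.9 ± 7.47 FPKM, above 219 30P by 0.70, 245 AMA-7 by 0.48 and 065 BP-8 by 0.45 (adjusted p = 3.00e-04, 0.00438 and 0.00822; for 065 BP-8 0.0703 without A15 day 39 replicate 2 and 0.077 without 065 BP-8 day 39 replicate 1). The others, at 45.7 to 54.6 FPKM, did not differ among neighbours (adjusted p = 0.846 and 0.139). COX6A did not pass on day 39 (F test, adjusted p = 0.359), its strain means lying between 161 and 180.0 FPKM. COX6B no longer passed the F test with median-ratio scaling (0.163).

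**Figure D5:**
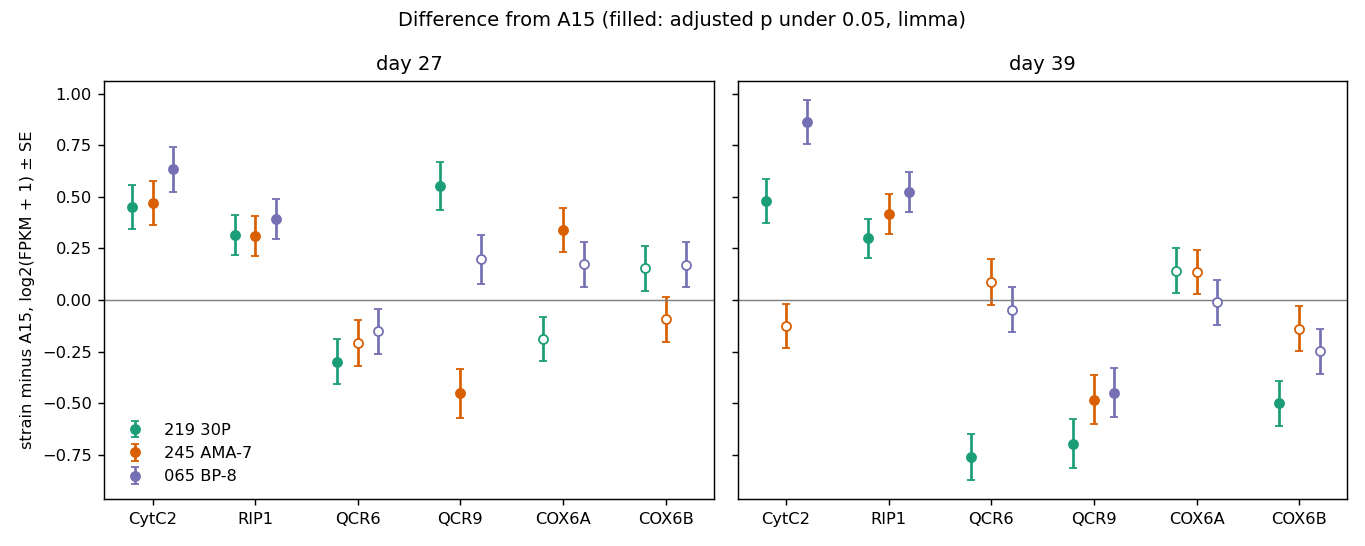
Differences of the other 3 strains from A15 on day 27 and day 39 for each gene on the log2(FPKM + 1) scale, with bars for the SE of the limma fit and filled points for an adjusted p under 0.05. On day 39 QCR6 in 219 30P lies at -0.76, and CytC2 in 065 BP-8 at 0.86.

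The day effect itself differed among strains for 5 of the 6 genes, where 70.7% of all tested genes passed that test. With median-ratio scaling 3 passed, QCR6 (0.0611) and COX6B (0.182) being lost, and COX6A was lost without 219 30P day 27 replicate 1 (0.0991) or day 39 replicate 1 (0.102). For the same pairs of strains 50.4%, 30.7%, 39.1%, 46.0%, 30.0% and 32.6% of tested genes passed. For QCR9 the day effect of 219 30P was 1.25 (log2) below that of A15 and 1.22 below that of 245 AMA-7 (limma adjusted p = 1.14e-04 and 1.29e-04). The day effect of 245 AMA-7 minus that of 219 30P was also positive for QCR6, at 0.76 (limma adjusted p = 0.00194), and for COX6B, at 0.61 (0.00684, or 0.121 with median-ratio scaling). For COX6A it had the other sign, at -0.54 (0.0125; 0.0508 to 0.0538 without 219 30P day 27 replicate 1, 219 30P day 39 replicate 1 or 245 AMA-7 day 27 replicate 1).

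The reference table gives symbols for 6 more subunits of complexes III and IV, and 5 of them fell in the mean of the strains while none rose (median -0.80 log2), where 32.5% of all tested genes fell and 44.9% rose. In complex III, QCR1 fell by 0.82 and QCR2 by 0.78 (limma adjusted p = 2.61e-09 and 5.27e-09). QCR8, a small subunit known in yeast to bind near cytochrome b, was at 0.095 (limma adjusted p = 0.257). In complex IV, COX4 fell by 1.00 (3.75e-10), COX5B by 0.86 (1.95e-08) and COX5A by 0.31 (3.13e-04). COX4 was the most abundant of these 6 per length, at 527 to 621 FPKM in the strain means on day 27 and 259 to 317 FPKM on day 39. Over all 12 genes 10 fell and none rose. Counted by complex, 4 of 6 subunits of complex III and 5 of 5 of complex IV fell, as did 5 of 5 of complex II, 9 of 11 of ATP synthase and 12 of 21 of complex I, where 5 rose. Of 3 genes with symbols of an alternative oxidase or alternative NADH dehydrogenase, 2 fell and 1 did not pass. These counts stand against the same 32.5% and 44.9% of all tested genes, and no test set a group against the others.

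Profiles over the 16 libraries were compared by the root mean square difference of log2(FPKM + 1) after centring each gene on its mean. CytC2 was 0.477 from RIP1, the second nearest gene with a symbol after hspC (0.350), but these ranked only 77 and 15 among all tested genes. Its nearest genes of any kind were AGABI2DRAFT_194260 (0.204), AGABI2DRAFT_219136 (0.261) and AGABI2DRAFT_185657 (0.264), and the median gene was at 1.20. For RIP1 the nearest with a symbol were NDE1, named for an external NADH dehydrogenase (0.212), and QCR2 (0.230), ranked 21 and 32, after AGABI2DRAFT_79146 (0.171), AGABI2DRAFT_195117 (0.172) and AGABI2DRAFT_191872 (0.179). QCR6 lay nearest to AGABI2DRAFT_193487, AGABI2DRAFT_135968 and AGABI2DRAFT_193757 (0.138 to 0.140) and, with a symbol, to QCR8 (0.172, rank 19) and ATP17 (0.182, rank 26), the latter a subunit of ATP synthase.

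QCR9 lay nearest to AGABI2DRAFT_115182 (0.123), AGABI2DRAFT_119628 (0.132) and AGABI2DRAFT_188842 (0.156), and with a symbol to the complex IV subunits COX5A (0.194, rank 31) and COX6B (0.225, rank 86). COX6A had AGABI2DRAFT_190720 (0.132), AGABI2DRAFT_195681 (0.145) and AGABI2DRAFT_133221 (0.155) nearest, and with a symbol the ATP synthase subunits ATP3 (0.194, rank 23) and ATP4 (0.199, rank 34). For COX6B AGABI2DRAFT_135986 (0.108) came first, followed by the complex I subunits NdufB11 (0.109) and NdufS3 (0.112). For these 3 genes the median gene was at 0.510 to 0.610. The libraries are the same for all genes and share their scaling, so nearness describes these 16 libraries.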

How the data were processed

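RNA of duplicate compost samples was sequenced on Illumina libraries, per the labels' protocols. BWA, Bowtie and RSEM appear in the submitters' processing notes, and no source used here gives their versions, their settings or the genome build. The unit of the deposited values was inferred to be FPKM, since they have 2 decimals and sum to between 832823 and 913010 in a library; depth per gene is unknown and no counting interval is given. Names came from the reference table of Agabi_varbisH97_2, where 10373 of 10438 identifiers matched. A filter kept the 8818 genes averaging at least 1 FPKM, and log2(FPKM + 1) was fitted with limma 3.58.1 (R 4.3.3; limma-trend on 16 libraries with 8 group means and 8 residual degrees of freedom), after the procedure had been tested on simulated data. Contrasts were day 39 against day 27, strain pairs on each day, and the interaction. Ratios and profiles used Python 3.11.15, numpy 2.4.6 and pandas 2.3.3. No label says that a replicate number marks a crate or batch, so none was used as a pair. Alternatives were 3 other scalings, pseudocounts of 5 and 0.1, no filter, a filter of 10 FPKM, a replicate block, each library left out, and each strain fitted alone. The genes named are the 6 members, every other subunit of complexes III and IV with a symbol, and the nearest profiles (3 of any kind and 2 with a symbol for each member). The members and gene lists were chosen with earlier results of these data known. The 918 genes that the A15 files lack were not tested.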

Additional observations from a re-analysis of the deposited data

Results flagged for a closer look

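The change from day 27 to day 39 differed among the 4 strains, by the limma F test of the interaction, for 5 of the 6 genes. The adjusted p-values were 0.00232 for CytC2, 0.00567 for QCR6, 1.49e-04 for QCR9, 0.0232 for COX6A and 0.00649 for COX6B, and 70.7% of all tested genes passed the same test. QCR6 (0.0611) and COX6B (0.182) did not pass with median-ratio scaling, nor did COX6A without 219 30P day 27 replicate 1 (0.0991) or day 39 replicate 1 (0.102). CytC2 changed by -2.49 (log2) in 245 AMA-7 and by -1.66 in 065 BP-8. QCR9 changed by -0.92 in 219 30P and by 0.33 in A15, and QCR6 by -0.40 in 219 30P and by 0.36 in 245 AMA-7. COX6A changed by -0.26 in 219 30P and by -0.80 in 245 AMA-7. COX6B changed by -0.60 in 219 30P and by 0.051 in A15.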

How the results depend on the processing

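The falls of CytC2, RIP1 and COX6A in the mean of the strains kept their direction and passed under every alternative tried, from -2.01 to -1.95, -1.20 to -1.15 and -0.64 to -0.58 (log2) without a single library. QCR6 in that mean was -0.052 with median-ratio scaling and 0.12 (adjusted p = 0.0416) with quantile normalization. QCR9 in that mean was between -0.19 and -0.12 without a single library and missed the threshold in 9 of 16 cases (adjusted p = 0.0516 to 0.0782). With median-ratio scaling QCR6 in A15 was -0.19, and COX6B was -0.20 in A15 and -0.17 in 245 AMA-7; with TPM scaling COX6B in 245 AMA-7 was -0.031. Without a single library, QCR6 in A15 was between -0.069 and 0.20, COX6B in A15 between -0.086 and 0.19 (-0.014 without day 27 replicate 2), and COX6B in 245 AMA-7 between -0.0435 and 0.054 (-0.020 without day 27 replicate 1). Members lower in 065 BP-8 numbered between 3 and 5 without a single library (3 without day 39 replicate 1). Members passing the interaction test numbered 3 with median-ratio scaling, without QCR6 (adjusted p = 0.0611) and COX6B (0.182); COX6A missed it without 219 30P day 27 replicate 1 (0.0991) or day 39 replicate 1 (0.102). The causes were not tested. The difference between replicates 1 and 2 of a group correlated with that of another group at -0.27 to 0.17 over 28 group pairs. Whether equal replicate numbers deviate together was not tested. The replicate block gave 6836 genes called in the mean of the strains, against 6830 without it, and 4 differences missed the threshold under it: COX6A in 219 30P (0.0597), QCR9 in 245 AMA-7 (0.0517), QCR6 between 219 30P and A15 on day 27 (0.0552), and QCR9 between 065 BP-8 and 219 30P on day 27 (0.0531). Fitted with its own libraries alone, QCR9 in A15 had an adjusted p of 0.0783, QCR9 in 065 BP-8 of 0.119 and COX6A in 219 30P of 0.0667. With 2 libraries per group and no counts, small changes rest on the shared spread.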
